A study of Sus scrofa with 24 samples.

Results

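The difference between the vein at the graft anastomosis and the jugular control vein was compared between day 5 and day 14 after an arteriovenous haemodialysis graft was placed in pigs. The material was 16 of the 24 samples of the series, in 4 groups of 4: external jugular vein control at day 5, external jugular vein control at day 14, venous anastomosis at day 5 and venous anastomosis at day 14. The labels give tissue, day and replicate number, and no genotype, strain, treatment other than the graft, or age for any group. All groups come from pigs in the graft model. The series describes 4 independent experiments with different biological replicates, and whether samples of the same number come from the same pig is not stated, so p-values measure the spread between these samples. Each anastomosis sample (Cy5, the red dye) and the control sample of the same number and day (Cy3, the green dye) were hybridised on the same Agilent pig array, so each array gave 1 difference, the log2 level of the anastomosis minus that of the control. The day change is the mean of the 4 day 14 differences minus the mean of the 4 day 5 differences, over 8 arrays and 43603 probes. A dye effect that is the same on all arrays cancels in it. A positive day change means that the anastomosis stood higher against its control at day 14 than at day 5. The remaining 8 samples, vein downstream of the anastomosis at both days, were used only for comparison.

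Neointimal hyperplasia, the growth of smooth muscle cells and fibroblasts into the lumen, narrows the vein where a dialysis graft joins it. Cells that enter mitosis switch on a shared set of genes, among them cyclin B1 and its kinase, the spindle motors and kinetochore proteins, and the machinery that marks cyclins for destruction, and most of their messenger RNAs are degraded when cells leave the cycle. Complement proteins are part of the blood's innate defence and are made mostly in the liver but also by fibroblasts and macrophages in injured tissue. Adventitial fibroblasts are the connective tissue cells of the outer vein wall.

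The probes that carry the main results are 60-base oligonucleotides; the first 30 bases of each are shown so that the measured transcript can be identified. CCNB1 and C4BPA are shown with both of their probes, because the 2 probes of each moved together although they share no run of bases longer than 5 for CCNB1 and 8 for C4BPA. No base is in capitals, since no part of a probe is singled out.
BIRC5: acagcagtggggatcccgttttaagtttct
UBE2C: ttaagtgtccggctaagcccttgtgatgag
CCNB1, probe 1: gccaaggctgtggcaaaggtgtaacttgtg
CCNB1, probe 2: tactacaggagaccatgtacatgacagttt
CDK1: ttcccacacgttgtatcaagaacagatagt
GPR1: ctgagacatagagctgactgtatcttcttt
C4BPA, probe 1: tgcagctctcaatccaatgtagatcacttg
C4BPA, probe 2: agtgtgactctggctatggtttgggttggt
RFTN1: gtgccaactgtcttgaccaaacaacagctt

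On the 8 arrays, the share of probes well above background was 62.9% to 79.0% in the anastomosis channel and 56.9% to 80.0% in the control channel. All 19 measured genes of contractile smooth muscle and all 19 of endothelium were well above background in all 4 samples of at least 1 group. So were 5463 of all 6184 genes and 20 of 26 skeletal muscle genes, so this does not identify the tissue. The arrays came from 5 scan dates: day 5 and day 14 were scanned on different dates in replicates 1 and 2 and on the same date in replicates 3 and 4. Below, scan as a block stands for the scan date. The day 14 array of replicate 2 stood apart from the other day 14 arrays. Its deviations from the day mean correlated at -0.32, -0.66 and -0.57 with those of replicates 1, 3 and 4 over all probes. Between the other pairs of day 14 arrays the values were -0.21, -0.09 and 0.05. Deviations from the mean of the same 4 arrays cancel out, so some negative correlation is built in and the -0.32 shows no distance. On the replicate 2 array the median contractile gene was 1.04 higher in the anastomosis, against 1.11 to 2.43 lower on the other 3. Its control sample had the lowest median level of contractile genes of the 8 controls, 12.01 against 14.14 to 15.17 (log2), and the highest of adipocyte genes, 14.50 against 9.06 to 11.22. The medians of the contractile, adipocyte, matricellular and collagen lists are given with and without this array. The day changes of most single genes are given only with it.

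At day 5 the anastomosis exceeded the control in genes of cell division, and by day 14 most of that excess was gone. Of 24 measured mitosis and spindle genes, 19 fell relative to the control at adjusted p under 0.05 (limma, Benjamini-Hochberg over all 43603 probes), and none rose. Over all 6184 genes with a symbol, each represented by its brightest probe, 33 fell, which is 0.534%, and 5 rose, which is 0.0809%. Over all probes, 63 (0.144%) fell and 17 (0.0390%) rose, 80 in all (0.183%), and 4142 (9.50%) had an unadjusted p under 0.05. All 24 mitosis genes had an unadjusted p under 0.05 in the lower direction, against 9.72% of all genes, and in all 24 the 4 day 14 differences lay below the 4 day 5 differences, against 6.26% of all genes. Their median difference was 2.52 on the log2 scale at day 5, a 5.75-fold excess at the anastomosis, and 0.51, or 1.42-fold, at day 14. The median day change was -2.00 over the list and -0.03 over all genes.

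**Figure D1:**
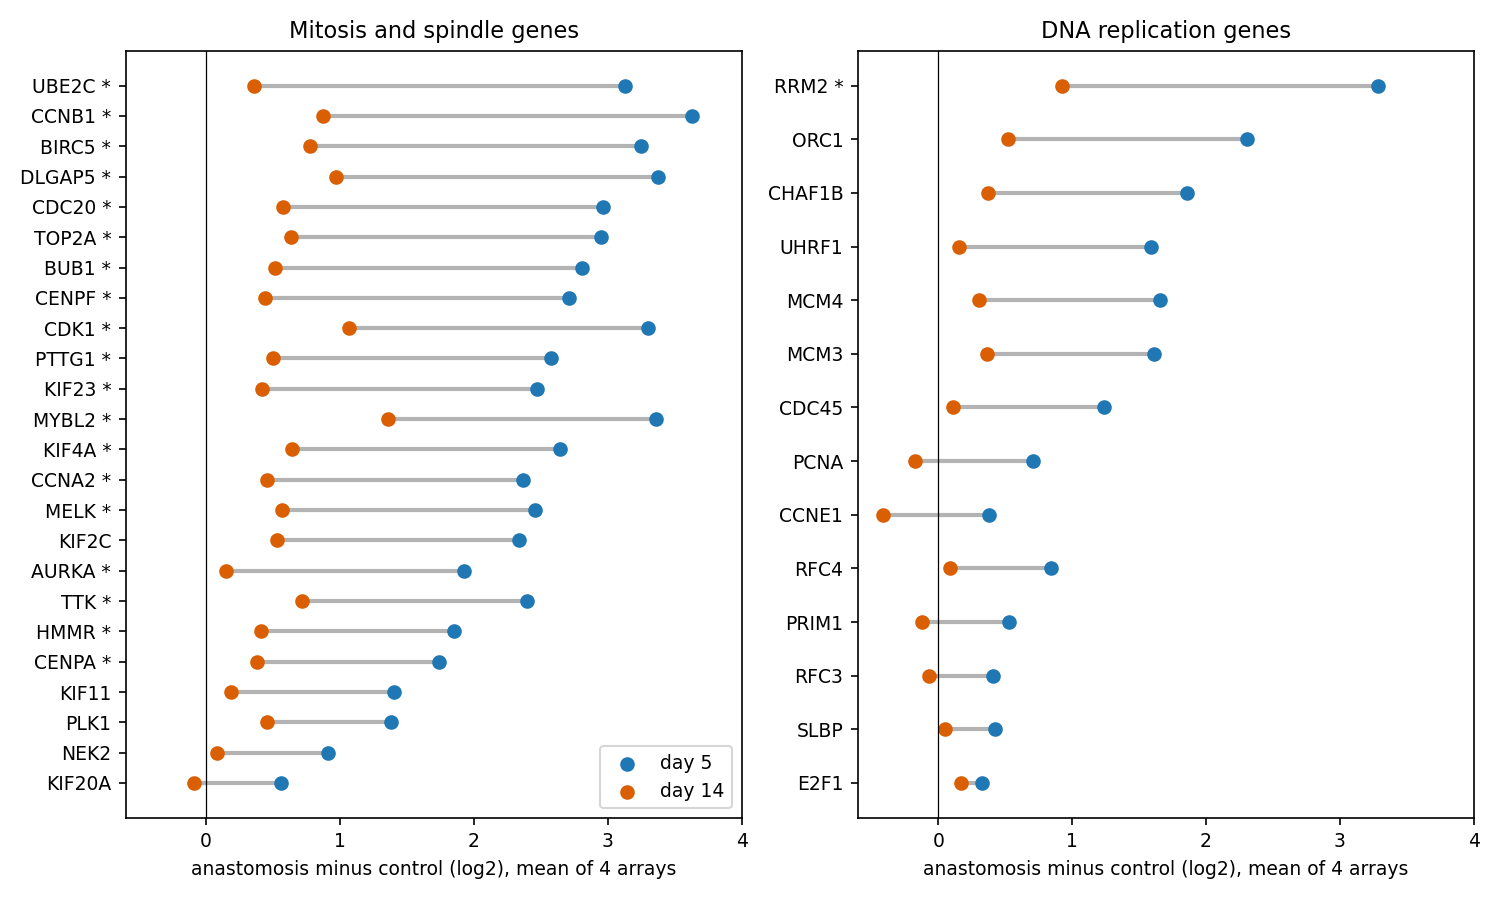
Mean difference between anastomosis and control (log2, 4 arrays per day) at day 5 (blue) and day 14 (orange) for the 24 mitosis and spindle genes and the 14 DNA replication genes; an asterisk marks an adjusted p under 0.05. The day 14 point lies left of the day 5 point for every gene of both panels, and most day 14 points lie between 0 and 1.

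BIRC5, survivin, a subunit of the chromosomal passenger complex that guides chromosome separation, had the smallest p of all genes. On the day 5 arrays it was 3.39, 3.40, 3.12 and 3.09 higher in the anastomosis than in the control (log2, replicates 1 to 4). On the day 14 arrays the differences were 0.66, 0.75, 0.62 and 1.07. The days do not overlap, and the spread within each is a small part of the gap between them. The excess went from 9.51-fold to 1.71-fold, a day change of -2.47 ± 0.13 (SE, n = 4 and 4; limma, adjusted p = 0.00294). BIRC5 passed the threshold with any 1 of the 8 arrays left out.

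CCNB1, cyclin B1, which activates CDK1 at the start of mitosis, had the largest excess of the mitosis list at day 5. Its day 5 differences were 3.83, 3.50, 3.69 and 3.49, and those of day 14 were 0.98, 1.61, 0.09 and 0.82. The excess of 12.4-fold at day 5 was 1.83-fold at day 14, and replicate 3 had almost none left. The day change was -2.75 ± 0.29 (SE; limma, adjusted p = 0.0273), and the second probe of the gene gave -2.57 ± 0.28 (limma, adjusted p = 0.0273). CDK1 itself, the kinase that cyclin B1 activates, had differences of 3.65, 3.39, 2.88 and 3.28 at day 5 and 1.10, 1.61, 0.45 and 1.12 at day 14. Its day change was -2.23 ± 0.26 (SE; limma, adjusted p = 0.0319).

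UBE2C, the ubiquitin-conjugating enzyme that works with the anaphase-promoting complex, changed most of the list. It was 3.32, 3.08, 3.04 and 3.06 higher at the anastomosis at day 5 and -0.41, 1.07, 0.05 and 0.71 at day 14, so that replicate 1 ended below its control. The day change was -2.77 ± 0.30 (SE; limma, adjusted p = 0.0273). CDC20, an activator of the same complex, fell by 2.39 ± 0.30. PTTG1, securin, which that complex destroys to let chromosomes part, fell by 2.07 ± 0.20.

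Genes of the spindle and of the kinetochore, the protein plate that ties chromosomes to it, fell likewise. DLGAP5, a spindle assembly factor, fell by 2.41 ± 0.20 (SE; limma, adjusted p = 0.011), and its differences were 3.55, 3.47, 3.28 and 3.21 at day 5 and 1.01, 1.38, 0.44 and 1.04 at day 14. HMMR, a hyaluronan receptor that also binds the spindle, fell by 1.44 ± 0.12 (adjusted p = 0.011). The spindle checkpoint kinase BUB1 fell by 2.29 ± 0.26, the kinetochore protein CENPF by 2.28 ± 0.30 and the spindle protein SPAG5 by 2.23 ± 0.21. TOP2A, the topoisomerase that untangles sister chromatids, fell by 2.32 ± 0.30, and its second probe by 2.16. The other called members were AURKA, CENPA, TTK, KIF23, MELK, CCNA2, KIF4A and MYBL2, with day changes between -2.05 and -1.36. KIF11, NEK2, KIF2C, KIF20A and PLK1 did not pass, with day changes of -1.22, -0.83, -1.80, -0.65 and -0.92. At day 14, 22 of the 24 genes were within 1 log2 unit of the control, and 23 of 24 were still above it. All 40 probes of the 24 genes had a lower value at day 14, 25 of them past the threshold.

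The genes of DNA replication, which act in S phase before mitosis, were lower at day 14 in 14 of 14, against 3354 of all 6184 genes. Of 14 measured, 1 fell past the threshold and none rose, and 12 had an unadjusted p under 0.05, all lower, against 9.72% of all genes. Their median difference went from 1.04 to 0.13, with a median day change of -1.01. RRM2, a subunit of ribonucleotide reductase, was the gene that passed. Its differences were 3.65, 3.44, 2.87 and 3.18 at day 5 and 0.61, 0.93, 0.37 and 1.78 at day 14, a day change of -2.36 ± 0.31 (SE; limma, adjusted p = 0.0401). UHRF1, which keeps DNA methylation through replication, had -1.43 ± 0.20 (adjusted p = 0.0529), ORC1 of the origin recognition complex -1.79 ± 0.28 (adjusted p = 0.0731) and CDC45 of the replicative helicase -1.13 ± 0.19 (adjusted p = 0.0951). In bulk tissue, fewer cells of a type and less RNA per cell cannot be told apart, here and in every result that follows.

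Of the 33 genes that fell, 13 were in none of the 34 lists. They are given with their textbook roles, for which no list was set and no share of all genes is known: SPAG5, already named, SKA1 at the kinetochore (-1.83), SGO1, which protects cohesin (-1.72), APITD1 at the centromere (-1.58), STIL in centriole duplication (-1.53), the condensin subunits NCAPD2 (-1.40) and SMC4 (-1.03), the cyclin CCNF (-1.35) and the checkpoint adaptor CLSPN (-1.33). STMN1, stathmin, which destabilises microtubules, fell by 1.46, and all 3 of its probes passed. DEPDC1B (-1.69), MTFR2, a mitochondrial fission regulator (-1.37), and GNG12, a G protein gamma subunit (-0.76), complete the set. These 13 are named because they are what remains of the called genes, after their values were seen.

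**Figure D2:**
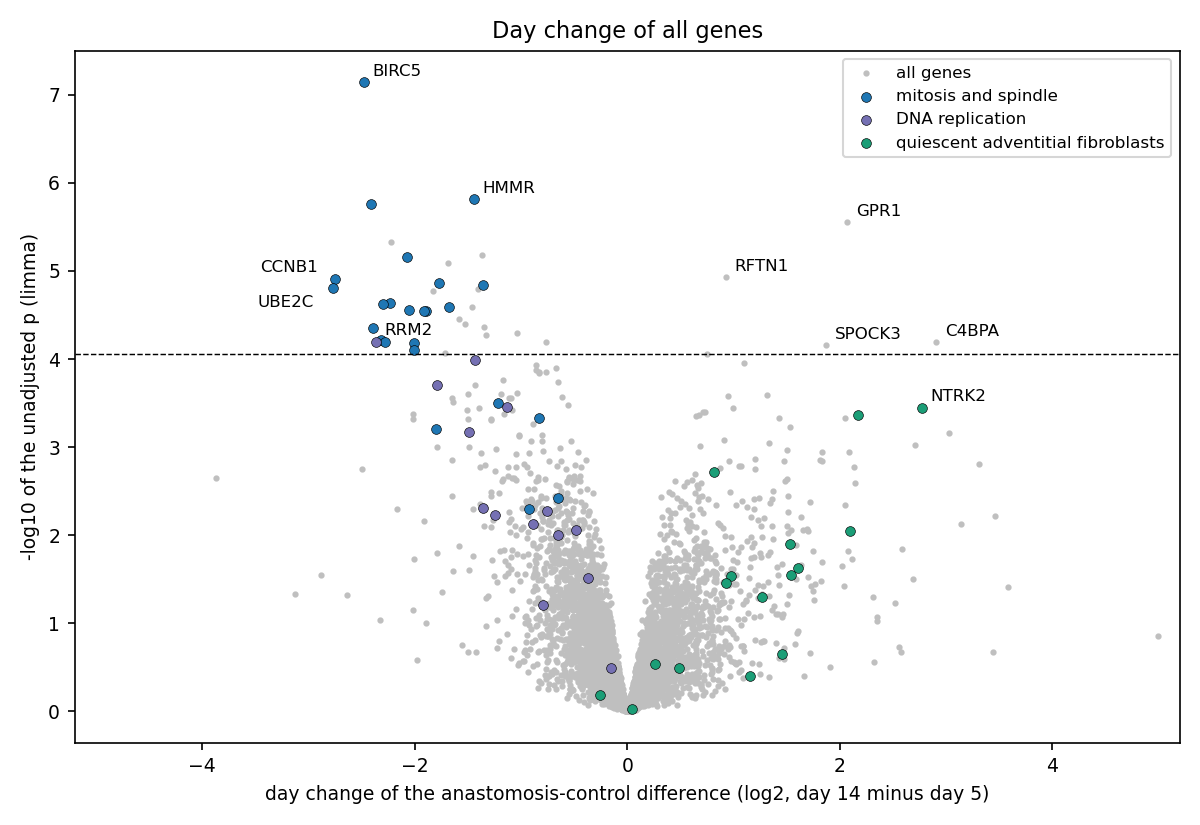
Day change (log2, day 14 minus day 5) against the -log10 of the unadjusted p (limma) for the 6184 genes; the dashed line marks an adjusted p of 0.05. The 19 mitosis genes above the line all lie on the left, the 5 genes above it on the right include C4BPA, GPR1, RFTN1 and SPOCK3, and 15 of the 16 fibroblast genes lie to the right, all below the line.

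The count of calls moved with every array left out, while the median change of the mitosis list moved little. Leaving out the day 5 array of replicate 1, 2, 3 or 4 gave 3, 9, 4 and 5 called probes, and leaving out the day 14 array gave 4, 173, 19 and 34. The median day change of the mitosis list stayed between -2.12 and -1.83 in these 8 fits, and all 24 genes kept an unadjusted p under 0.05. In replicates 1 and 2 alone, where the days were scanned on different dates, the median was -1.90 and 22 of 24 genes had an unadjusted p under 0.05. In replicates 3 and 4 alone, which shared a scan date between days, it was -2.20 and 24 of 24. The count depended on the processing as well: 41 probes passed with the scanner's processed signals and 10 with median centring in place of loess. With scan date as a fixed block 0 passed, and 1809 had an unadjusted p under 0.05 (limma). Of the mitosis genes 12, 1 and 0 passed in these fits, and in each the 24 mitosis genes had an unadjusted p under 0.05. The fixed block leaves 2 residual degrees of freedom and takes the day change from replicates 3 and 4 alone. With scan date as a random block, all 86 named genes kept their sign and none lost its call. With 2 arrays a day neither pair of replicates called any of the 43603 probes by limma, and 3439 and 3182 had an unadjusted p under 0.05.

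Both sides of the difference moved. The anastomosis level of all 24 mitosis genes was lower at day 14, by a median of 1.52, and the control level of 23 of the 24 was higher, by a median of 0.52. For each of the 24 the anastomosis moved further than the control. BIRC5 at day 5 had control levels of 9.65, 9.31, 9.09 and 9.71 and anastomosis levels of 13.04, 12.71, 12.21 and 12.79 (normalized log2 level, replicates 1 to 4). At day 14 the control levels were 10.89, 9.36, 9.30 and 10.88 and the anastomosis levels 11.55, 10.12, 9.92 and 11.95. At day 14 replicates 1 and 4 were high in both sites and replicates 2 and 3 low in both, so the difference on an array varied less than either level. The SD over the 4 samples at day 14 was 0.89 in the control and 1.02 in the anastomosis, against 0.21 for the difference. CCNB1 showed the same arrangement, with day 14 control levels of 9.73, 8.19, 9.07 and 10.62 and anastomosis levels of 10.71, 9.81, 9.16 and 11.44. From these samples, whether the shared part comes from the animal or the array cannot be told apart, since both samples of a number were on the same array. The downstream samples were on other arrays. At day 14 their medians of the mitosis list were 9.38, 8.87, 9.76 and 8.18, against 9.87, 8.41, 8.63 and 9.79 in the control and 10.39, 9.52, 8.73 and 10.32 in the anastomosis. Whether a number is the same pig is not stated, and the source of the shared part was not tested. Without the array as the unit, with the 16 levels as separate samples, limma called 0 of 43603 probes and 1220 had an unadjusted p under 0.05, 22 of the 24 mitosis genes among them.

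**Figure D3:**
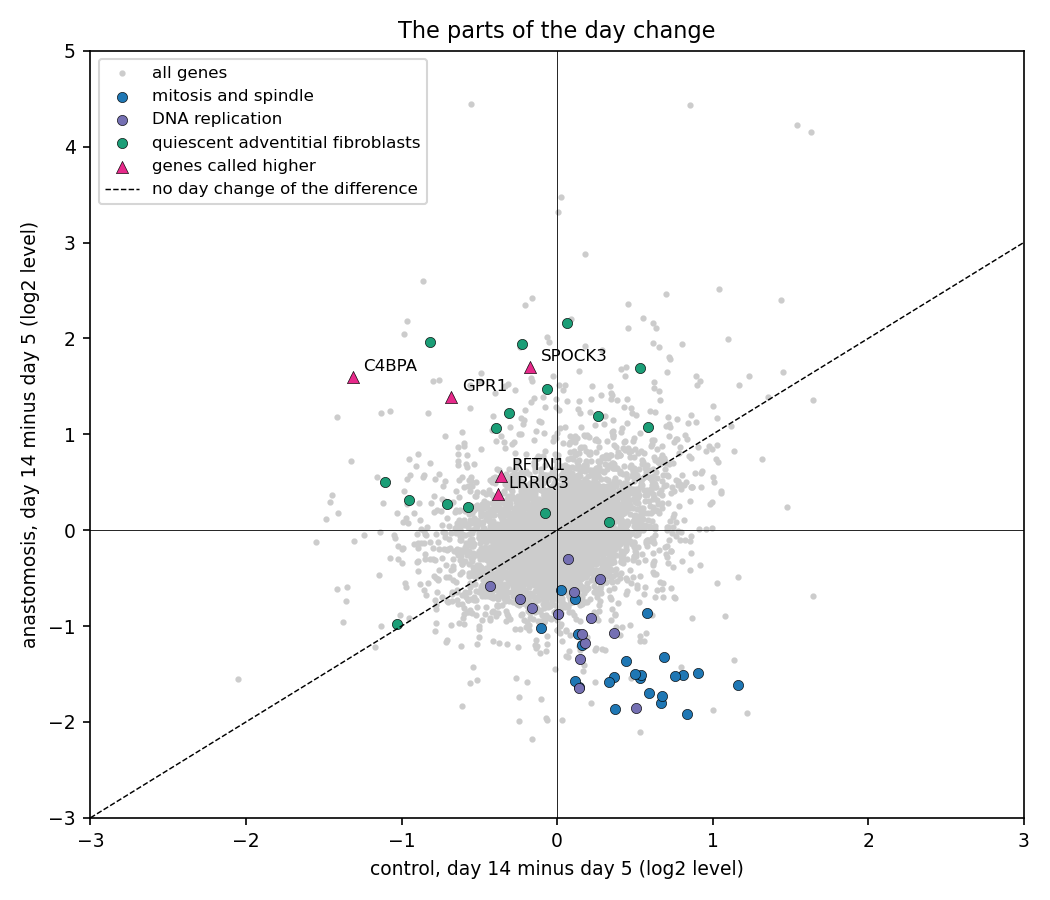
Change in level from day 5 to day 14 (log2 of group means) in the control (horizontal axis) and in the anastomosis (vertical axis), for all genes within the axes. Marked are 3 lists and the 5 genes called higher. On the dashed line the difference between the sites did not change. All but 1 of the 24 mitosis genes lie at the lower right, with a median of -1.52 in the anastomosis and 0.52 in the control, and all 5 genes called higher lie at the upper left.

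The vein downstream of the anastomosis was on other arrays, so its day change against the control is less precise, with SEs of 0.27 to 0.85 for the 24 mitosis genes against 0.12 to 0.33 at the anastomosis. Both comparisons share the control samples. The downstream day change had a median of -1.85 for the mitosis list and was below 0 in all 24 genes. For BIRC5 it was -2.54 ± 0.85 downstream and -2.47 ± 0.13 at the anastomosis, and for CCNB1 -2.56 ± 0.82 and -2.75 ± 0.29 (SE). The difference between both day changes was tested as the day change of anastomosis minus downstream. None of the 43603 probes passed (limma), 1328 (3.05%) had an unadjusted p under 0.05, and of the 24 mitosis genes 0 did. For BIRC5 the difference of day changes was 0.07, with a 95% interval from -2.08 to 2.22, and for CCNB1 it was -0.19, from -2.35 to 1.96. These intervals are too wide to show that the sites changed alike. The downstream day 5 sample of replicate 1 was low for these genes, with BIRC5 at 9.92 against 12.08 to 12.47 in the other 3.

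**Figure D4:**
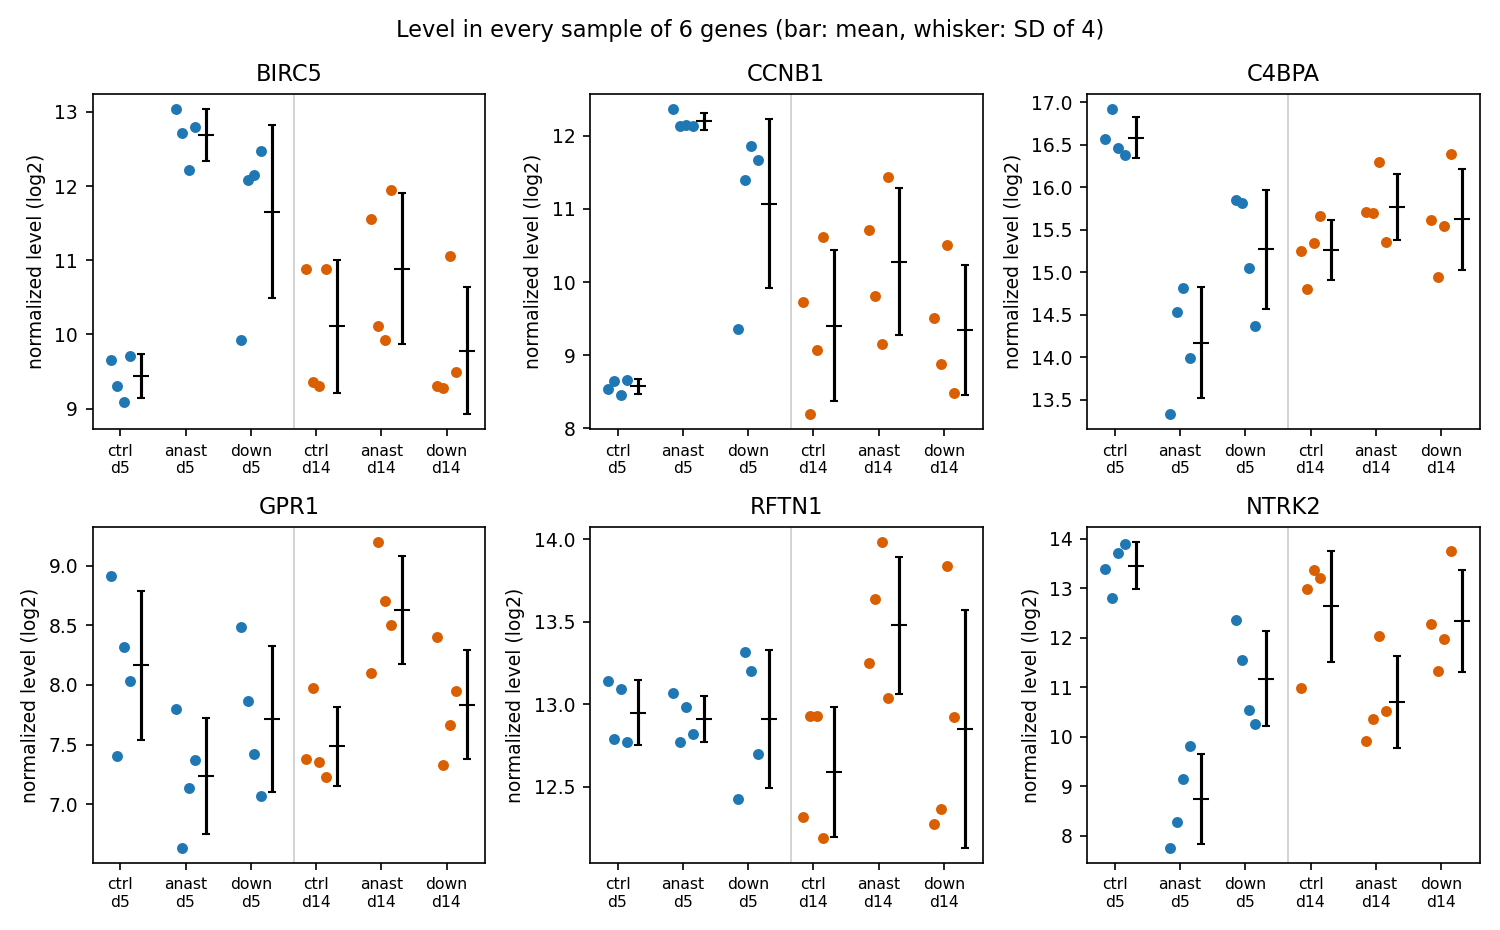
Normalized level (log2) of 6 genes in each of the 24 samples, by site (ctrl, control; anast, anastomosis; down, downstream) and day, with mean and SD of 4 samples beside the points. BIRC5 and CCNB1 at day 5 separate anastomosis from control, C4BPA is lower in the control and higher in the anastomosis at day 14 than at day 5, and GPR1 and RFTN1 are above the paired control in the anastomosis at day 14.

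In the other direction 5 genes rose in the anastomosis relative to the control. GPR1, a receptor of the adipokine chemerin, changed sides. Its differences were -1.11, -0.77, -1.18 and -0.66 at day 5 and 0.72, 1.22, 1.35 and 1.28 at day 14, so the anastomosis was below its control on every day 5 array and above it on every day 14 array. The day change was 2.07 ± 0.18 (SE, n = 4 and 4; limma, adjusted p = 0.0152), made of a mean anastomosis level 1.39 higher and a mean control level 0.68 lower at day 14.

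C4BPA, the alpha chain of C4b-binding protein, an inhibitor of the classical complement pathway, had the largest change of the 5. Its differences were -3.24, -2.39, -1.64 and -2.38 at day 5 and 0.46, 0.90, 0.95 and -0.30 at day 14. The anastomosis was far below its control on all day 5 arrays and near or above it on the day 14 arrays. The day change was 2.91 ± 0.38 (SE; limma, adjusted p = 0.0401), with a mean control level 1.31 lower and a mean anastomosis level 1.60 higher at day 14. The control levels were 16.57, 16.92, 16.46 and 16.37 at day 5 against 15.25, 14.81, 15.35 and 15.66 at day 14. The anastomosis levels were 13.33, 14.53, 14.82 and 14.00 at day 5 against 15.71, 15.70, 16.29 and 15.35 at day 14, so neither site's days overlapped. The second probe, designed to a C4b-binding protein alpha chain-like gene that the reference table gives the same symbol, rose by 2.04 ± 0.21 (adjusted p = 0.0273). The 2 probes may read different, related genes.

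RFTN1, raftlin, a protein of membrane rafts, was even between the sites at day 5, with differences of -0.07, -0.02, -0.11 and 0.05, and higher at the anastomosis at day 14, with 0.94, 0.71, 1.05 and 0.85. The spread within each day was small beside the gap, and the day change was 0.93 ± 0.10 (SE; limma, adjusted p = 0.0273). SPOCK3, a testican proteoglycan of the matrix, had differences of 0.11, -0.34, 0.19 and -0.26 at day 5 and 2.47, 1.77, 1.64 and 1.31 at day 14. Its day change was 1.87 ± 0.25 (adjusted p = 0.0415), nearly all of it in the anastomosis, and in the control the probe was well above background in 3 of 4 samples at day 5 and 2 of 4 at day 14. LRRIQ3 rose by 0.75 ± 0.10 (adjusted p = 0.0476) from a mean difference of -1.26 to -0.51, and its dimmer second probe had 0.17. These calls were near the threshold: C4BPA and SPOCK3 lost theirs with any 1 of the 8 arrays left out, RFTN1 and LRRIQ3 with any except the day 14 array of replicate 2, and GPR1 with any of the 4 day 5 arrays. Against the downstream vein, the day change of GPR1 differed by 1.27, with a 95% interval from 0.15 to 2.38, and that of SPOCK3 by 1.50, from 0.43 to 2.57, with unadjusted p of 0.0304 and 0.0121 by limma and an adjusted p of 0.999 for both. For C4BPA it differed by 1.24, for RFTN1 by 0.63 and for LRRIQ3 by -0.01, with unadjusted p of 0.0654, 0.103 and 0.965 by limma.

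The next 7 genes in the higher direction did not pass. MCT7, a mast cell tryptase, had a day change of 1.10 ± 0.16 (limma, adjusted p = 0.0538) and went from a mean difference of -0.35 to 0.74. ITM2B had 1.32 ± 0.21 (adjusted p = 0.0814), with its other 3 probes at 0.59 to 0.66. SLA-DOA, an MHC class II chain, had 0.94 ± 0.15 (adjusted p = 0.0821). NTRK2, the receptor of brain-derived neurotrophic factor, had 2.78 ± 0.47 (adjusted p = 0.0963). NPL, an enzyme that breaks down sialic acid, had 0.99 ± 0.17, and the lysosomal enzymes AGA and ARSA had 0.74 ± 0.13 and 0.71 ± 0.12, all with adjusted p of 0.0966 to 0.101. In all 7 the day 14 differences lay above the day 5 differences, against 3.36% of all genes; that separation was part of how they were chosen. The second, dimmer probe of ARSA had -0.01, and the other 2 probes of NPL had 0.29 and 0.35.

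Of the 80 called probes, 29 had no symbol, 18 lower and 11 higher. A_72_P415788 had the largest change of these, 3.83 ± 0.25, from a mean difference of -1.64 to 2.20 (adjusted p = 0.00514). A_72_P121106 (1.49) and A_72_P429089 (2.06) also rose. A_72_P196912 fell by 2.35 ± 0.14 (adjusted p = 0.00294), A_72_P143641 by 1.53 and A_72_P413238 by 1.33.

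Most markers of quiescent adventitial fibroblasts had a less negative or more positive difference at day 14 than at day 5. None of the 16 measured passed the threshold, 10 had an unadjusted p under 0.05 in the higher direction, against 6.06% of all genes, and 0 in the lower. Their median difference went from -2.08 to -0.97, and the median day change was 1.21. SCARA5, a ferritin receptor, had differences of -6.37, -5.80, -5.82 and -5.39 at day 5 and -2.70, -3.95, -4.50 and -3.55 at day 14. The days do not overlap, and the anastomosis remained well below the control: the day change of 2.17 ± 0.38 (limma, adjusted p = 0.102) left a level of 0.0783 times the control. NTRK2 had -5.63, -4.54, -4.58 and -4.08 at day 5 and -1.07, -2.64, -1.33 and -2.68 at day 14, and of its other probes 1 had 3.14 and 1 had 0.09. ABCA8, a lipid transporter, had a day change of 2.10 ± 0.61 and the complement component C7, which was above its control on average at both days, 0.82 ± 0.18. DPT, dermatopontin, went the other way, from a mean difference of -0.36 to -0.62. The move lay in the anastomosis, with a median of 1.07, more than in the control, with -0.27. For replicates 1 to 4 the list's median day change was 1.85, 0.57, 0.65 and 1.49. The same medians were 0.95, 2.59, -1.08 and -0.03 for contractile markers and 0.05, -2.52, 3.64 and 1.59 for adipocyte markers, and their part in this was not tested.

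Contractile smooth muscle genes had a higher day 14 value in 19 of 19, against 2830 of all 6184 genes. None of them passed the threshold, and 1 had an unadjusted p under 0.05, near the 6.06% of all genes in the higher direction. The median difference went from -1.86 to -1.18. By array the list's median was -1.58, -2.10, -1.46 and -1.80 at day 5 and -1.11, 1.04, -2.43 and -1.72 at day 14. The median of the genes' day changes was 0.95 and 2.59 in replicates 1 and 2. In replicates 3 and 4 it was below 0, at -1.08 and -0.03. Without the day 14 array of replicate 2 the list's median day change was -0.05, against 0.64 with it, and it was -0.41 in replicates 3 and 4 alone. ACTA2, smooth muscle actin, had day 14 differences of -0.79, 2.57, -3.10 and -1.17, and its day change of 1.58 ± 1.05 turned to -0.23 in replicates 3 and 4 alone. Phospholamban, PLN, which regulates the calcium pump, had 2.04 ± 0.82 (limma, adjusted p = 0.489).

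Adipocyte genes were the most variable list at day 14. The list's median difference was -0.14, -0.13, -0.41 and -0.63 at day 5 and 0.04, -2.86, 3.22 and 0.27 at day 14. ADIPOQ, adiponectin, had day 14 differences of 0.77, -9.35, 6.50 and 3.40, and a day change of 4.99 ± 3.04 (limma, adjusted p = 0.691). None of the 24 measured genes passed, and 1 had an unadjusted p under 0.05, in the higher direction, against 6.06% of all genes. The list's median day change of 0.73 was -1.05 in replicates 1 and 2 and 2.70 in replicates 3 and 4, and it was 1.90 without the day 14 array of replicate 2 and -0.22 without that of replicate 3.

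**Figure D5:**
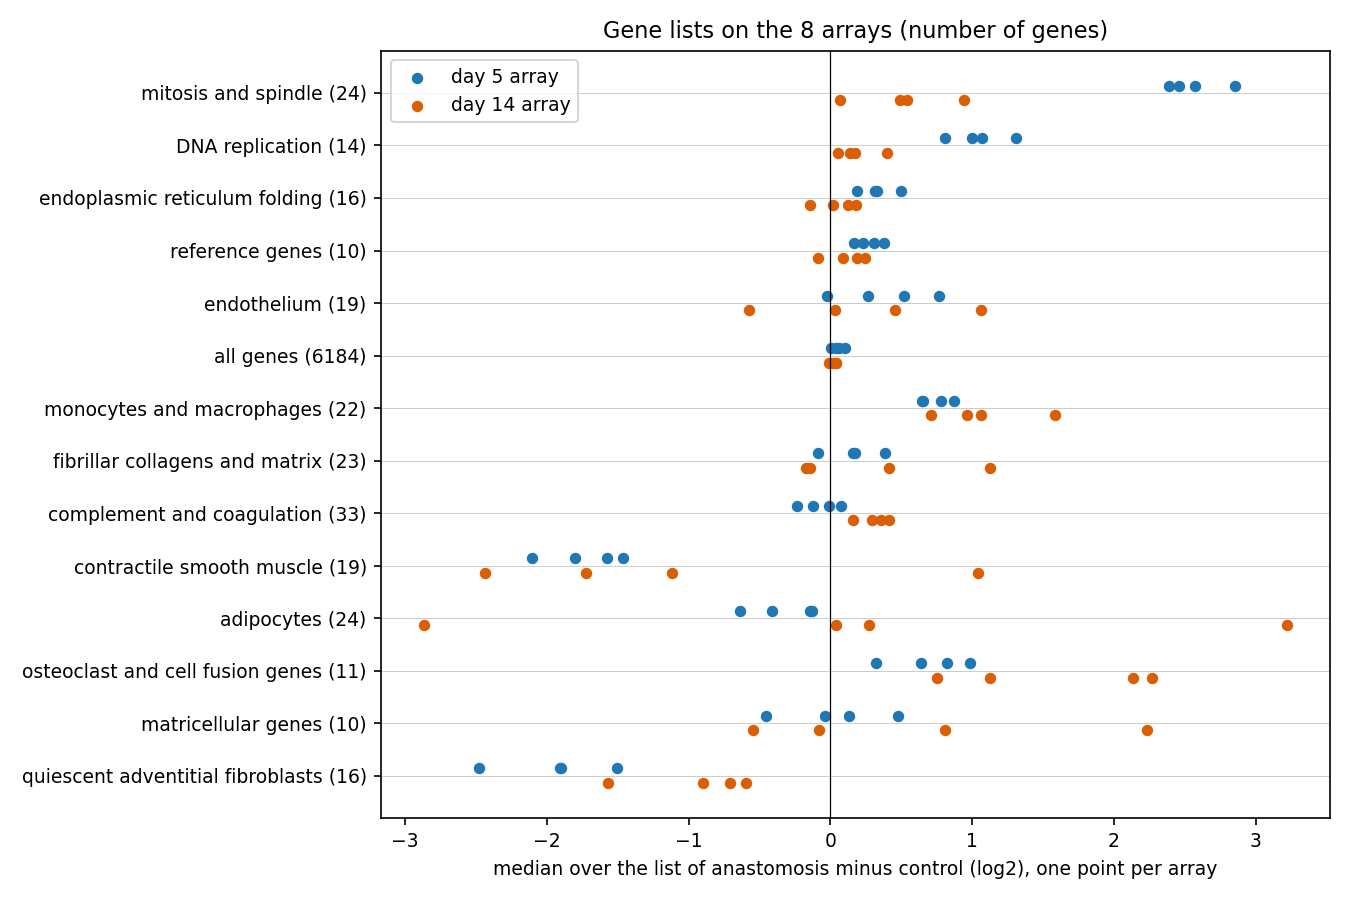
Median over each gene list of the anastomosis minus control difference (log2), one point per array, for day 5 (blue) and day 14 (orange); the number of genes is in parentheses. The mitosis medians run from 2.39 to 2.85 at day 5 and from 0.07 to 0.94 at day 14, while the day 14 points of adipocyte genes run from -2.86 to 3.22.

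Complement and coagulation genes leaned upward, with a day change above 0 in 23 of 33 and below 0 in 10. The list's median day change was 0.76, -0.11, 0.42 and 0.56 in replicates 1 to 4. Of 33 measured, C4BPA alone passed, 9 had an unadjusted p under 0.05 in the higher direction, against 6.06% of all genes, and 0 in the lower, and the median difference went from -0.01 to 0.33. C3, the central component that all pathways cleave, had differences of 0.35, 0.52, 0.82 and -1.33 at day 5 and 3.08, 2.88, 1.75 and 3.49 at day 14. From near parity it reached a 6.96-fold excess, with no overlap of the days, but its day change of 2.71 ± 0.53 did not pass (limma, adjusted p = 0.148). C1QC and C1QA, chains of the C1q recognition molecule that macrophages make, had 1.64 ± 0.45 and 1.38 ± 0.42. At day 14 both were highest on the array of replicate 2, at 2.46 and 2.31 against 0.54 to 0.66 and 0.38 to 0.49 on the other 3. A dim second probe of C1QC had a day change of -0.01. CFD, factor D, had 1.53 ± 0.48 and is also listed with the adipocytes and the fibroblasts.

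Of 22 genes of monocytes and macrophages none passed, and 8 had an unadjusted p under 0.05, all higher, against 6.06% of all genes, 3 of them the C1q chains counted above. MRC1, the mannose receptor, had differences of -0.72, -0.88, -0.71 and 0.57 at day 5 and 0.83, 1.44, 0.61 and 0.82 at day 14. All 4 day 14 values were above all 4 of day 5, with a day change of 1.36 ± 0.34 (limma, adjusted p = 0.246). Of the 22 genes, 16 had a day change above 0 and 6 below 0. Among the 6 were SLC11A1 at -1.09 ± 0.55 and CD14 at -0.53 ± 0.47. The list's median day change was 0.25, and it was -0.04 without the day 14 array of replicate 4 and -0.15 in the deposited value table. Downstream its median day change against the control was -0.50. For 5 of the 22 genes the difference between both day changes had an unadjusted p under 0.05 (limma), against 3.05% of all probes. Of these, 0 were past the threshold.

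Genes of osteoclasts and cell fusion had higher day 14 values in 11 of 11, against 2830 of all 6184 genes, with none past the threshold and 5 with an unadjusted p under 0.05, against 6.06% of all genes. CTSK, cathepsin K, a collagen-cleaving protease, had differences of -0.12, 0.12, -0.23 and -0.46 at day 5 and 1.71, 1.13, 0.46 and 0.81 at day 14, a day change of 1.20 ± 0.26 (limma, adjusted p = 0.196). NFATC1, the transcription factor of osteoclast formation, had 1.26 ± 0.36, the chloride transporter CLCN7 0.76 ± 0.25 and the fusion receptor DCSTAMP 2.02 ± 0.72. The dimmest of the 3 probes of NFATC1 had -0.10. By array the list's median at day 14 was 2.13, 1.13, 0.75 and 2.27, highest in replicates 1 and 4, and its median day change was 0.76, from 0.50 without the day 14 array of replicate 1 to 1.39 without that of replicate 3, or 0.040 in the deposited value table. Downstream, as for the macrophage list, the median was below 0, at -0.37 against the control. For 5 of the 11 genes the difference between both day changes had an unadjusted p under 0.05 (limma), against 3.05% of all probes. An adjusted p under 0.05 was reached by 0 (limma).

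Matricellular genes, whose products modify the matrix without building it, had a median day change of 1.20 over 10 symbols, of which CCN2 and CTGF are names of the same gene. None passed. THBS4, thrombospondin 4, had differences of 1.02, 5.39, 3.79 and 2.36 at day 5 and 6.21, 5.97, 8.18 and 6.05 at day 14. Its day 5 values were widely spread, and the day change of 3.46 ± 0.94 did not pass (limma, adjusted p = 0.281), although every day 14 value exceeded every day 5 value. POSTN, periostin, had 1.46 ± 0.51, SPARCL1 1.36 ± 0.66 and SMOC1 -0.66 ± 0.30. Without the day 14 array of replicate 2 the list's median was 0.08.

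Fibrillar collagens and related matrix genes had a median day change of 0.42 with 0 of 23 past the threshold, and of 0.11 without the day 14 array of replicate 2 and -0.079 in replicates 3 and 4 alone. COL11A1, a minor fibrillar collagen, had differences of 0.14, 0.60, 1.96 and 2.20 at day 5 and 1.53, 4.47, 4.06 and 3.28 at day 14. In the control it was not well above background in any of the 8 samples, so the level there is only a bound and no fold is given. COL5A2 had 0.72 ± 0.24, LAMA2 0.82 ± 0.30 and COL3A1, the main collagen of soft tissue beside type I, -0.62 ± 0.21, so the values of the list go both ways.

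Folding genes of the endoplasmic reticulum leaned down, with none of 16 past the threshold, 4 with an unadjusted p under 0.05 in the lower direction, against 9.72% of all genes, and a median day change of -0.24. DNAJC3, a co-chaperone of the stress response, had -0.80 ± 0.15, SSR1 of the translocon -1.39 ± 0.35, the disulphide isomerase PDIA3 -0.75 ± 0.20 and CRELD2 -0.88 ± 0.33. The endothelium list had a median day change of -0.07 over 19 genes, and -0.25 to 0.09 with 1 array left out. None passed the threshold, and 1 had an unadjusted p under 0.05, ACE at 0.50 ± 0.13, against 6.06% of all genes in the higher direction. CDH5, VE-cadherin, had -0.81 ± 0.50, VWF 0.69 ± 0.34 and VCAM1 0.67 ± 0.67. The dimmer second probe of CDH5 had -0.86 ± 0.25, with days that do not overlap (limma, adjusted p = 0.322). Of the 34 lists, 31 held no called gene.

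The 10 reference genes gave a median day change of -0.07, and none passed (limma), with 1 at an unadjusted p under 0.05. Day changes of the brightest probes were -0.53 for TUBB, -0.49 for HPRT1, 0.22 for SDHA, -0.19 for RPL4, 0.09 for ACTB, -0.07 for YWHAZ, and -0.06 for TOP2B and for PPIA. The other probes of RPL4 had -0.53, -0.52 and -0.52, each with an unadjusted p under 0.05 (limma). Those of TUBB ran from -1.04 to -0.47 and those of ACTB from -0.13 to 0.57, and the second probe of TOP2B had -0.45. None of these probes passed the threshold. The sign of ACTB, the actin of the cytoskeleton, was negative after median centring, with single-channel quantiles, with the processed signals and in the deposited value table, and that of PPIA was positive after median centring and with array weights.

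The genes that lead the comparison of the sites within a day, chosen from earlier results, had no day change past the threshold beyond CCNB1. SPP1, osteopontin, had differences of 4.26, 4.98, 5.13 and 3.74 at day 5 and 7.33, 3.10, 2.59 and 7.46 at day 14, a day change of 0.59 ± 1.18, which was -1.58 in the deposited value table and -0.03 for its second probe. Replicates 1 and 4 were high and replicates 2 and 3 low at day 14. IBSP, bone sialoprotein, had the same split, at 5.71, 1.64, 1.17 and 5.84, with a day change of -1.49 ± 1.10, but its control was well above background in only 2 of 4 samples at day 5 and 1 of 4 at day 14, so these values are limited by background. CXCL14, a chemokine, had 0.18 ± 0.57 and TMEM158 0.56 ± 0.52. ACP5, the tartrate-resistant acid phosphatase of osteoclasts and macrophages, had 1.21 ± 0.76, CAPN6 1.77 ± 0.70 and the acute phase gene SAA3 -2.02 ± 0.97. Among genes lower at the anastomosis, PDK4, which restrains glucose oxidation, had differences of -4.37, -4.50, -4.12 and -4.73 at day 5 and -3.37, -2.29, -1.60 and -3.21 at day 14, a day change of 1.82 ± 0.38 (limma, adjusted p = 0.18), with its other 2 probes at 0.83 and 0.96. The epithelial plakin PPL had 1.02 ± 0.38, MYOC 1.46 ± 1.10, the potassium channel subunit KCNAB1 0.81 ± 0.97, the metallothionein MT1A -2.33 ± 1.22, the heat shock gene HSPA6 -0.45 ± 1.35 and SKIL, a repressor of SMAD signalling, -0.36 ± 0.92. The SEs in this set run up to 1.35, against 0.12 to 0.33 for the mitosis genes. KCNAB1 was -0.22 without the day 14 array of replicate 2.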

How the data were processed

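RNA from 24 vein samples was isolated by a Qiagen RNeasy Micro kit, then labelled by Agilent's two-colour method, per the labels' protocols. The authors deposited scanner intensity values per spot, read by Feature Extraction, version 10.5.1.1 in the file headers, and a log2 value table, deposited by the authors with its scale and centring unstated, which was used as an alternative; its levels correlated at 0.928 to 0.959 with those computed here, and its differences at 0.573 to 0.856. According to the headers, Feature Extraction read the spots of replicates 1 and 2 under a different version of its protocol from replicates 3 and 4. Below, protocol version means this software setting. The mean signals were background-corrected (normexp, offset 50, all spots) and loess-normalized within each array, with control and outlier spots at weight 0 (limma 3.58.1 in R 4.3.3). Levels of single samples were also scaled between arrays (Aquantile). Spots of the same probe were averaged, giving 43603 probes. The 8 differences were fitted on day with lmFit and eBayes, with 6 residual degrees of freedom and Benjamini-Hochberg adjustment over all probes, at a threshold of 0.05. The fit was tested on simulated data. The number of arrays limits the precision.

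A symbol was found for 9140 probes (21.0%), or 6184 genes, from the files' annotation columns and NCBI name tables, and a gene is represented by its brightest probe. Named genes are, in each direction, the 12 with the largest day change among those past the threshold, well above background in all 4 samples of a group and with days that do not overlap, filled up by the lowest p where fewer passed. To these were added up to 4 genes of lowest p in each of 12 described lists, the measured reference genes apart from 2 that are not reported here, and genes that led earlier site comparisons; TNN of the latter was not matched. The members and lists were chosen with earlier results of these data known. In the 34 lists, 575 of 955 genes were measured. Alternatives covered background correction, normalization, a filter on dim probes, the variance model, array weights, blocks for replicate, scan and protocol version, pairs of replicates, the deposited value table and leaving out each array. Scan date as a fixed block was chosen after seeing the data.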

Additional observations from a re-analysis of the deposited data

Results flagged for a closer look

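The day change, a difference between days under the same contrast, passed the threshold by limma for 18 of the 86 named genes. The 13 lower were UBE2C (-2.77), CCNB1 (-2.75), BIRC5 (-2.47), DLGAP5 (-2.41), CDC20 (-2.39), RRM2 (-2.36), TOP2A (-2.32), BUB1 (-2.29), CENPF (-2.28), CDK1 (-2.23), SPAG5 (-2.23), PTTG1 (-2.07) and HMMR (-1.44). The 5 higher were C4BPA (2.91), GPR1 (2.07), SPOCK3 (1.87), RFTN1 (0.93) and LRRIQ3 (0.75).

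In 11 of 172 groups of 4 differences, the highest or lowest array was far from the other 3 by Dixon's criterion at the 95% level, where chance gives about 1 in 20. On the day 14 array of replicate 2 the differences of MYOC (-6.75, others -2.30 to -1.80), CFD (-2.75, others -1.01 to -0.73) and YWHAZ (-0.78, others -0.29 to -0.23) were low, and those of C1QC (2.46, others 0.54 to 0.66) and C1QA (2.31, others 0.38 to 0.49) were high. At day 14, THBS4 was high in replicate 3 (8.18, others 5.97 to 6.21) and ARSA low in replicate 4 (0.64, others 1.06 to 1.09). At day 5, UBE2C (3.32, others 3.04 to 3.08) and DNAJC3 (1.26, others 0.88 to 0.93) were high in replicate 1, and MRC1 was high (0.57, others -0.88 to -0.71) and SMOC1 low (-1.19, others -0.31 to -0.18) in replicate 4.

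The green channel of the downstream arrays, to which the labels give no sample, carried signal: a median of 73.3% of probes, from 56.6% to 82.4%, were well above background there. It was not used.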

How the results depend on the processing

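The 80 called probes and 19 called mitosis genes were recounted under each alternative. Leaving out 1 array gave 3 to 173 probes and 1 to 19 mitosis genes, the highest without the day 14 array of replicate 2. The processed signals gave 41 and 12, median centring 10 and 1, and an intensity trend in eBayes 30 and 4. Array weights gave 127 probes, the term for the protocol version 50, and an adjusted p under 0.10 gave 172. The deposited value table gave 212, of which 133 lower and 79 higher (37.3% higher, against 21.2% of the 80). With the replicate block 1 probe and 0 mitosis genes passed, and 4256 probes had an unadjusted p under 0.05 (limma). The numbers were not taken to pair the days, since deviations of arrays with the same number correlated at 0.14, -0.08, 0.09 and 0.09. No probe or mitosis gene (0 and 0) passed without the block within the day (1220 probes at unadjusted p under 0.05), with all 24 samples (3364), in replicates 1 and 2 (3439) or 3 and 4 alone (3182), or with scan as a fixed block (1809). In all of these fits at least 22 of the 24 mitosis genes had an unadjusted p under 0.05. None of the 18 named genes past the threshold changed sign in any of these alternatives. With scan date as a random block none of the 18 lost its call.

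The named genes that changed sign were all short of the threshold. In replicates 3 and 4 alone, and equally with scan as a fixed block, these were ACTA2 (-0.23), ACTB (-0.56), CDH5 (0.055), HPRT1 (0.033), KCNAB1 (-1.06), PPIA (0.22), RETN (0.24), VCL (-0.34) and YWHAZ (0.030). In replicates 1 and 2 alone these were ADIPOQ (-0.33), CIDEC (-0.029), CXCL14 (-0.80), HSPA6 (0.92), MYOC (-0.61), SDHA (-0.12) and SKIL (1.44). In the deposited value table these were ACTB (-0.27), HSPA6 (0.10), SPP1 (-1.58) and TMEM158 (-0.20). ACTB was -0.028 with the processed signals, -0.16 with median centring and -0.13 with single-channel quantiles, and PPIA was 0.047 with median centring and 0.039 with array weights. With 1 array left out, sign changes were seen in ACTB (-0.16 to 0.48), CXCL14 (-0.085 to 0.64), HSPA6 (-1.28 to 0.42), KCNAB1 (-0.22 to 1.44), PPIA (-0.22 to 0.15), SDHA (-0.020 to 0.47), SKIL (-1.35 to 0.089), SPP1 (-0.19 to 1.43) and YWHAZ (-0.14 to 0.060). The causes were not tested.

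With 4 arrays a day, a gene passed only where its spread was small, so a count short of the threshold does not show that a gene was alike at both days. Probes near background understate differences. Only 21.0% of probes have a symbol, and counts over genes leave out the rest. Day and scan date cannot be told apart in replicates 1 and 2.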
